A study of Mus musculus with 29 samples.

Results

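Bile duct ligation (BDL) was set against a sham operation 7 days after surgery in mouse liver. The arrays were chosen by their titles, 5 that read BDL and 4 that read sham at day 7, which made 9 of the 29 arrays of the series. All mice were male C57BL/6N, 8 to 10 weeks old and on standard diet. In the BDL group the extrahepatic common bile duct was tied off, and the sham group was operated on without ligation. Every title reads wt, the usual short form of wild type, and no transgene or drug is named in the labels. Each title also carries a number of its own, read here as that of a mouse, which the labels do not state. BDL and sham arrays of days 1 and 3 and BDL arrays of day 21 entered the fit and are used only where named.

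Bile acids are made from cholesterol in hepatocytes, taken back up from portal blood by carriers of the sinusoidal membrane and pumped into bile by ATP-driven exporters of the canalicular membrane. When the duct is blocked, bile acids accumulate, and hepatocytes can lower synthesis and uptake and export bile acids back to blood through basolateral pumps. The ligated liver is also known for proliferating bile ductules, recruitment of macrophages and neutrophils, activation of stellate cells and portal fibroblasts, and deposition of collagen. RNA of liver mixes these cells. For every gene below, more cells of a type and more RNA per cell cannot be told apart.

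Values are log2 RMA expression, a background-corrected array signal on which 1 unit is a 2-fold step. Fold changes are the mean of BDL minus the mean of sham on this scale, with the SE of limma, and p-values are adjusted over the 14699 genes tested. A group mean under 5 was taken as not told apart from background, and a called change with 1 such mean is given as fitted and, after "at least", as the step from 5. Arrays correlated across genes at 0.988 to 0.992 within BDL, at 0.983 to 0.988 within sham and at 0.970 to 0.980 between the groups. In BDL, 2088 genes were higher (14.2% of the genes tested) and 731 were lower (4.97%). Of these, 50 were at least 4-fold higher and 17 at least 4-fold lower. The arrays of the groups did not overlap for 2955 genes (20.1%), 2088 of them higher and 867 lower in BDL; these include 1695 of the genes called higher and 528 of those called lower. The split of the calls depended on scaling: 74.1% of calls were higher in BDL as deposited, 61.9% with cyclic loess and 56.2% with quantile scaling. The median log2 fold change over the genes tested was 0.03, and 472 of the higher and 89 of the lower genes differed by at least 2-fold.

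The sham array with title number 678, replicate 1 here, stood apart in some genes. It was at least 1 log2 unit above the other 3 sham arrays in 41 genes and at least 1 below them in 33, against 7 to 14 and 1 to 13 genes for the other sham arrays. Cyp4a14, a fatty acid hydroxylase, Col1a1, a chain of type I collagen, Tff3, a trefoil peptide of mucus, and Tcf24, a transcription factor, led the genes in which it was high, with Col1a2 next. Without it 1931 genes were higher (13.1%) and 655 lower (4.46%) in BDL. Genes named from the matrix and stellate lists are given with and without this array.

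**Figure D1:**
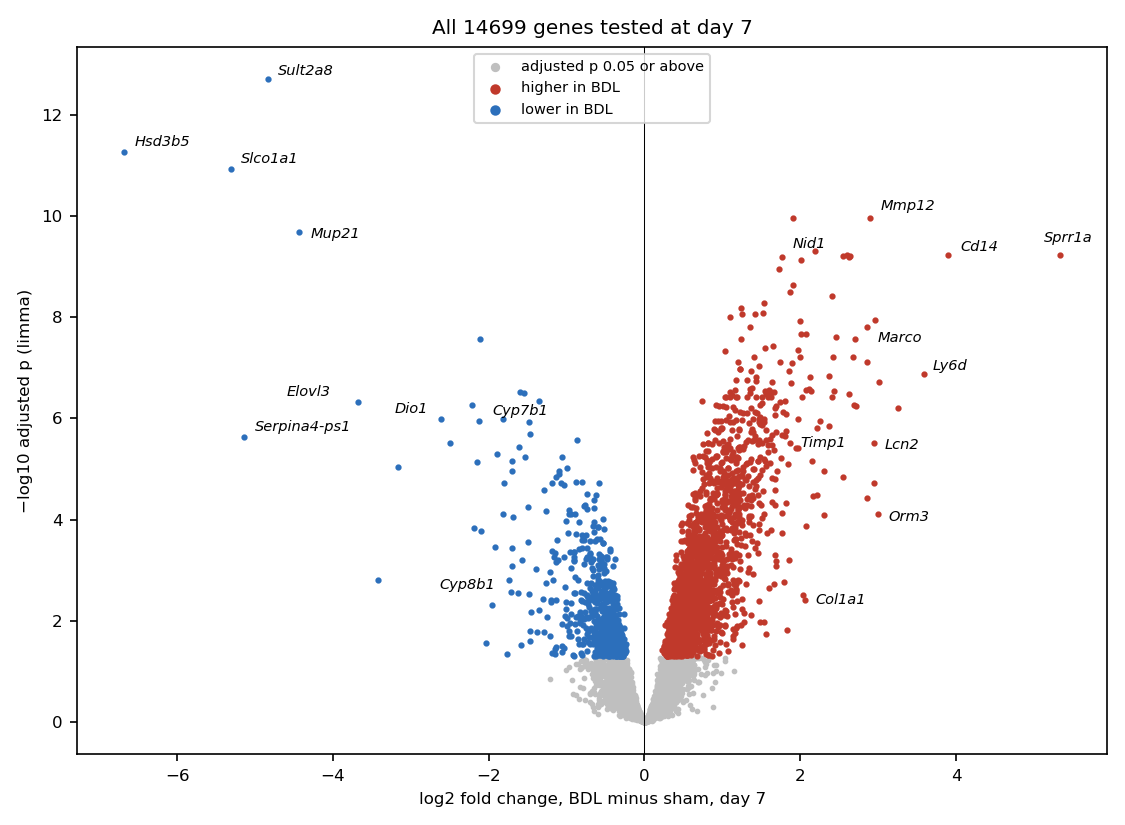
Log2 fold change of BDL minus sham at day 7 (x axis) against −log10 of limma's adjusted p (y axis) for the 14699 genes tested, 1 point per gene. Red marks the 2088 genes higher and blue the 731 genes lower in BDL, and the left edge is taken by Hsd3b5, Slco1a1, Serpina4-ps1 and Sult2a8.

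The largest rises at day 7 were those of an epithelial envelope gene, genes of macrophages and genes of the acute phase. Sprr1a, a precursor of the cornified envelope of squamous epithelium, had 9.72, 9.68, 10.59, 10.18 and 9.67 in BDL arrays and 4.40, 4.64, 4.42 and 5.06 in sham arrays. Every BDL array was far above every sham array, the sham arrays lay about the background level, and the log2 fold change was 5.34 ± 0.42 (adjusted p = 5.82e-10 in limma), or at least 4.97. Cd14, the co-receptor for lipopolysaccharide, had 9.12, 9.14, 9.08, 9.58 and 9.59 in BDL and 5.37, 5.35, 5.69 and 5.21 in sham. These groups stood apart too, by 3.90 ± 0.31 (adjusted p = 5.82e-10). Ly6d, a membrane-anchored protein of the Ly6 family, had 9.27, 8.94, 9.61, 9.36 and 8.98 in BDL and 5.23, 6.23, 5.43 and 5.68 in sham. Its sham arrays were all under its BDL arrays, at a difference of 3.59 ± 0.38. Lcn2, a lipocalin that binds bacterial siderophores, had 13.08, 12.80, 12.99, 13.15 and 13.10 in BDL and 9.03, 10.56, 12.01 and 8.70 in sham. The BDL arrays of Lcn2 lay within a narrow band, whereas sham replicate 3 came close to them; the difference was 2.95 ± 0.39 (adjusted p = 3.04e-06), and 3.59 without that array.

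The other rises among the 12 largest were spread over several cell types. Chil3, a chitinase-like protein of macrophages, rose by at least 2.10 (3.25 ± 0.39 as fitted), and Gpnmb, a transmembrane glycoprotein of lipid-laden macrophages, by at least 2.85 (2.96 ± 0.27 as fitted), both with sham means under background. Mmp12, the macrophage metalloelastase, had 7.94, 6.91, 7.55, 7.78 and 7.66 in BDL and 4.81, 4.33, 4.93 and 4.62 in sham. Its sham arrays were all under the background level of 5, and the rise was 2.90 ± 0.21 (adjusted p = 1.11e-10), at least 2.57. Marco, a scavenger receptor of resident macrophages, had 9.67, 9.17, 10.31, 10.27 and 10.26 in BDL and 7.13, 7.65, 6.68 and 6.85 in sham, with no overlap and a difference of 2.86 ± 0.27. Cib3, of the calcium and integrin-binding family, rose by 3.01 ± 0.33, although its sham arrays ran over more than 2 log2 units, at 8.61, 7.55, 6.29 and 6.95. Sult1e1, the estrogen sulfotransferase, rose by at least 2.05 (2.95 ± 0.45 as fitted), with a sham mean under background, and Orm3, an acute phase orosomucoid, by 3.00 ± 0.51. Cdkn1a, the inhibitor of cyclin-dependent kinases known as p21, had 9.47, 8.56, 9.14, 9.45 and 8.87 in BDL and 6.24, 6.23, 6.25 and 6.26 in sham. Its sham arrays lay within less than 0.05 of each other, and its rise of 2.85 ± 0.30 was larger than the whole spread of either group. Among the 12 genes the highest adjusted p in limma was 7.92e-05, that of Orm3, whose difference was 2.26 without sham replicate 1, 3.78 without sham replicate 3 and 1.98 against all 9 sham arrays of the series.

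Of these 12 genes, 10 had an entry among RefSeq promoters of GRCm38.p6, taken from 250 bases before to 50 bases after the start site. The AP-1 motif TGANTCA, searched on both strands, was found in 4 of the 10, against 6.88% of the genes tested and 7.81% of all 32851 promoters. Of the 12 largest falls 9 had an entry, and 1 of these held TGANTCA. A second motif, CAAAGTCCA, was searched for the falls and found in 0 of the 9. It was found in 1 of the 10 rises and in 0.59% of the genes tested. A match is a description and no binding was measured. The windows are shown because they belong to 4 of the largest rises, with the motif in capitals.
Sprr1a, chr3:92486011-92486037, minus strand: taactaaagcTGAGTCAgagggtgaac
Sprr1a, chr3:92485981-92486007, minus strand: gggaggagggTGAGTCAtaggtgactg
Orm3, chr4:63355940-63355966, plus strand: accttgatcaTGAATCAgccactctgg
Gpnmb, chr6:49036516-49036542, plus strand: caggggcaagTGACTCAtgagcacgag
Mmp12, chr9:7347320-7347346, plus strand: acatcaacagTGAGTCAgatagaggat
The starts of the motifs lay at -146 and -116 from the start site of Sprr1a, at -208 from that of Orm3, at -44 from that of Mmp12 and at base 9 of the transcribed side for Gpnmb.

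The largest falls were of hepatocyte genes, and 6 of the 12 belong to the list of genes expressed more in male than in female mouse liver. Hsd3b5, a male-biased steroid dehydrogenase, had 3.21, 3.28, 2.87, 2.81 and 2.80 in BDL and 8.39, 10.05, 9.87 and 10.38 in sham. All BDL arrays were under the background level and all sham arrays well above it, a fall of -6.68 ± 0.41 (adjusted p = 5.55e-12 in limma), which is at least 4.67 in size; it was -6.06 against all 9 sham arrays. Slco1a1, the organic anion carrier OATP1A1 of the sinusoidal membrane, had 5.97, 4.95, 6.53, 4.92 and 5.35 in BDL and 10.61, 11.02, 10.74 and 11.04 in sham. The groups were more than 4 log2 units apart at their nearest arrays, and the log2 fold change was -5.31 ± 0.34. Sult2a8, a sulfotransferase of mouse liver, had 6.39, 6.20, 6.59, 5.64 and 6.08 in BDL and 10.49, 11.17, 11.11 and 11.30 in sham, and its log2 fold change of -4.84 ± 0.25 had an adjusted p of 1.97e-13. Elovl3, a fatty acid elongase, had 9.03, 7.00, 7.16, 7.10 and 7.24 in BDL and 9.72, 11.79, 11.22 and 12.02 in sham. Here BDL replicate 1 and sham replicate 1 lay close to each other, without overlap, at a log2 fold change of -3.68 ± 0.43. Dio1, the deiodinase that activates thyroid hormone, had 7.08, 7.16, 7.40, 7.44 and 6.80 in BDL and 8.71, 10.36, 10.02 and 10.08 in sham, with sham replicate 1 the lowest of its group and a log2 fold change of -2.62 ± 0.32.

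Moxd1, a monooxygenase of the dopamine beta-hydroxylase family, had 3.48, 4.23, 3.97, 4.15 and 3.71 in BDL and 4.29, 9.28, 7.75 and 7.98 in sham. The groups did not overlap, yet sham replicate 1 sat at the level of BDL, and the log2 fold change was -3.42 ± 0.76 with it and -4.43 ± 0.68 without it (adjusted p = 0.00156 and 2.69e-05 in limma). Without sham replicate 2, the highest array, it was -2.77 (adjusted p = 0.0140). Cyp4a12a, a male-biased omega-hydroxylase, fell by 2.50 ± 0.33, Ces3b, a carboxylesterase, by 2.21 ± 0.26, and Slc22a28, of the organic anion transporter family, by 2.19 ± 0.39. Mup21, a major urinary protein, had 5.06, 3.64, 4.42, 3.45 and 3.51 in BDL and 7.94, 8.32, 8.41 and 9.16 in sham, a log2 fold change of -4.44 ± 0.33. The BDL means of Moxd1, Mup21 and Mup-ps12 were under background, so their falls were at least 2.32, 3.45 and 1.96 in size, in that order. Serpina4-ps1 (-5.14 ± 0.67) and Mup-ps12 (-3.16 ± 0.46 as fitted) carry names of pseudogenes. The Mup, Serpina, Sult, Cyp4a and Ces families hold near-identical copies that probes can share, so which copy fell is uncertain.

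**Figure D2:**
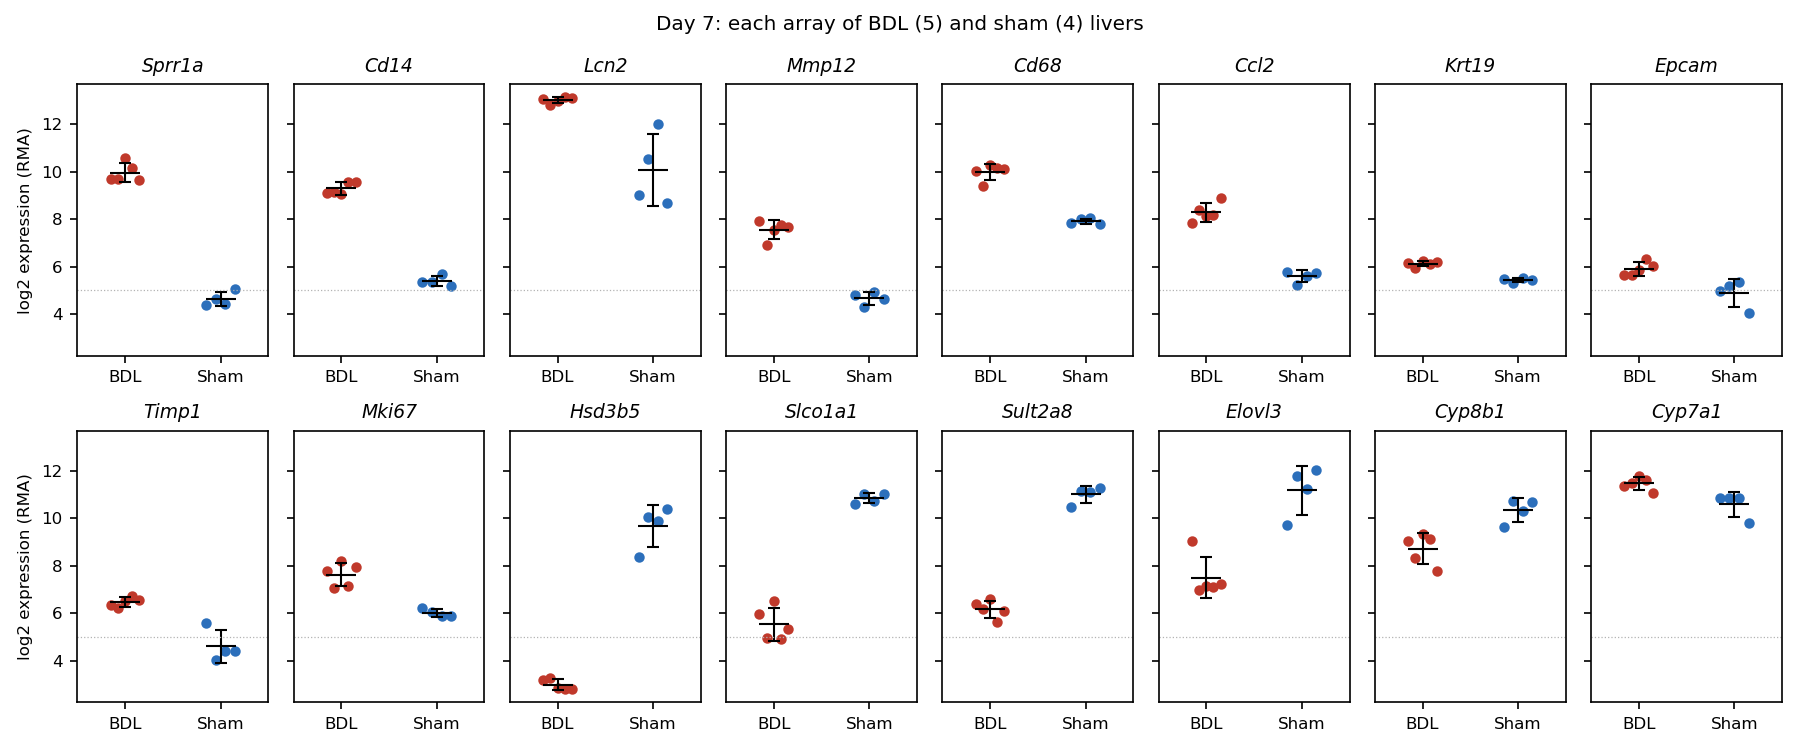
Log2 expression (y axis) of 16 genes in the 5 BDL arrays (red) and 4 sham arrays (blue) of day 7, 1 panel per gene; bars are the mean and SD, and the dotted line is the background level of 5. Sprr1a, Cd14 and Mmp12 stand apart upward and Hsd3b5, Slco1a1 and Sult2a8 downward, while the difference of Cyp7a1 did not pass in the fit of all groups.

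Of 35 gene lists of cell types and pathways, the highest medians were those of monocyte-derived macrophage markers (1.43), Kupffer cell markers (1.05) and the cell cycle (0.82), and the lowest was that of male-biased liver genes (-1.20). Medians run over all measured members and stand beside 0.03 for all genes tested. Counts of members that rose or fell stand beside 14.2% of all genes tested that were higher and 4.97% that were lower in BDL.

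**Figure D3:**
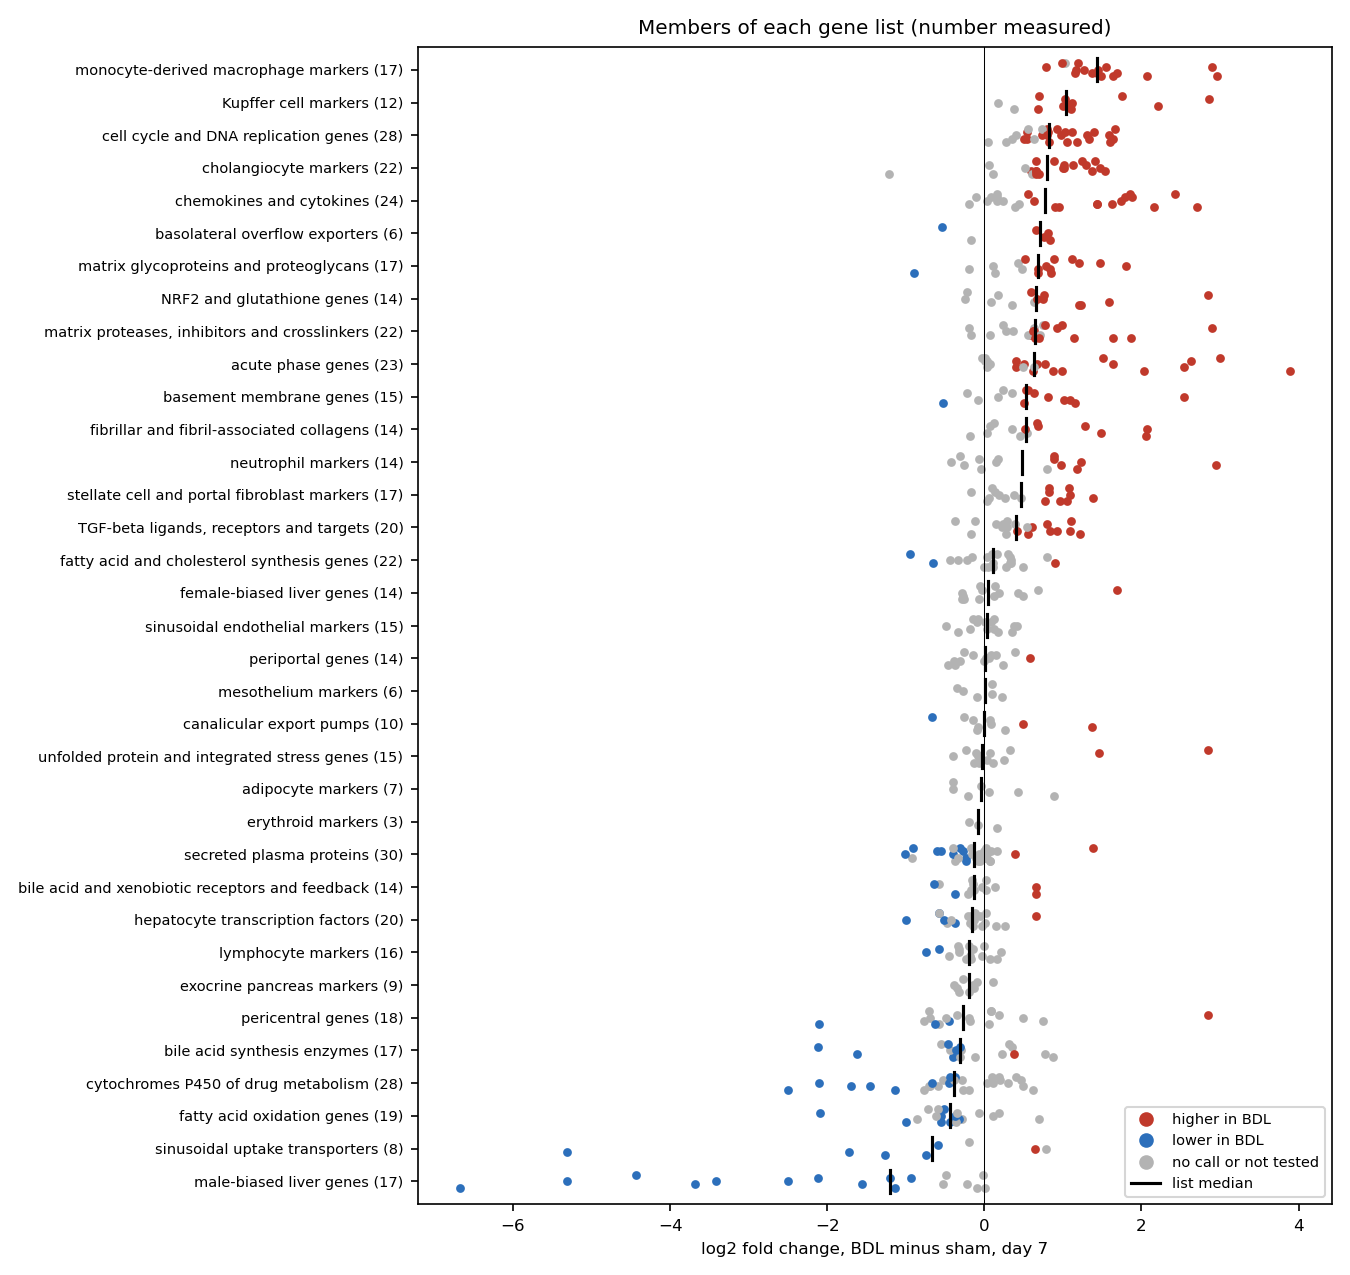
Log2 fold change of BDL minus sham at day 7 (x axis) for each measured member of 35 gene lists (y axis, ordered by list median, black bar). Red members were higher and blue members lower at an adjusted p under 0.05; macrophage lists lie at the top and male-biased genes at the bottom.

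Bile duct markers rose at day 7. Of 21 cholangiocyte markers tested, 17 rose and none fell, with a median of 0.79 over the 22 measured. Krt19, a keratin of bile ducts, had 6.18, 5.96, 6.25, 6.10 and 6.18 in BDL and 5.49, 5.31, 5.53 and 5.43 in sham. The rise was small but larger than the spread, at 0.70 ± 0.13 (adjusted p = 0.000162 in limma). Epcam, the epithelial adhesion molecule, had 5.65, 5.65, 5.84, 6.33 and 6.04 in BDL and 4.98, 5.18, 5.35 and 4.05 in sham, with a mean under background in sham and a rise of 1.02 ± 0.22, at least 0.90. Sox9, a transcription factor of cholangiocytes and their progenitors, had 8.61, 8.10, 8.14, 8.42 and 8.71 in BDL and 7.11, 7.55, 6.85 and 8.04 in sham. Sham replicate 4 was just under the lowest BDL array, and the rise was 1.01 ± 0.25 (adjusted p = 0.00369).

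The largest changes in this list were those of Anxa3, an annexin (1.54 ± 0.14), Muc1, a membrane mucin of ducts (1.47 ± 0.19), Bicc1, an RNA-binding protein linked to cystic kidney disease (1.40 ± 0.19), and Cd24a, a surface glycoprotein of progenitor cells (1.37 ± 0.19). Anxa3 had 7.46, 7.42, 7.62, 7.72 and 7.78 in BDL and 5.96, 6.36, 5.83 and 6.10 in sham, so that the nearest arrays of the groups were more than 1 log2 unit apart. Prom1 (1.30 ± 0.29 as fitted, at least 0.73 as its sham mean was under background), a marker of ductular progenitors, and Cldn4 (1.24 ± 0.22), a tight junction protein of ducts, rose as well, and the apical chloride channel Cftr was called higher (adjusted p = 0.000152 in limma) with both group means under background, so no size is given. Krt7, another duct keratin, had 5.91, 6.41, 6.12, 6.59 and 5.97 in BDL and 5.93, 5.19, 5.62 and 5.68 in sham, groups that overlapped, and its rise of 0.60 ± 0.20 (adjusted p = 0.0311) was lost with quantile scaling (0.110), cyclic loess (0.0535) and without BDL replicate 2 or 4 or sham replicate 2, 3 or 4 (up to 0.144). The secretin receptor Sctr stood at 0.11 ± 0.14 and the water channel Aqp1 at 0.52 ± 0.20, neither past the threshold. Spp1 was not analysed here.

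Of 14 fibrillar and fibril-associated collagens tested, 7 rose in BDL and none fell, with 1 sham array at the level of the ligated livers for several of them. Col1a1, the main chain of type I collagen, had 9.45, 9.96, 9.22, 9.99 and 9.36 in BDL and 10.43, 6.17, 7.38 and 6.16 in sham. Sham replicate 1 was above every BDL array and the other 3 sham arrays were under them all. The difference was 2.06 ± 0.51 with all sham arrays (adjusted p = 0.00394 in limma) and 3.03 ± 0.31 without replicate 1 (adjusted p = 6.70e-08), and 2.76 against all 9 sham arrays. With only the 9 day 7 arrays in the fit, the call was lost (adjusted p = 0.0522). Replicate 1 also had the highest mean over the markers of mesothelium, at 6.08, against 5.22 to 5.80 in BDL arrays and 5.33 to 5.58 in the other sham arrays, and the part of this in the matrix results was not tested. Col1a2, the second chain, had 8.28, 8.63, 7.96, 8.91 and 8.42 in BDL and 9.36, 6.07, 6.87 and 5.50 in sham. It showed the same order of arrays, at 1.49 ± 0.42 with (adjusted p = 0.0106) and 2.29 ± 0.24 without replicate 1 (adjusted p = 1.04e-07). Its call was lost in the fit of day 7 arrays (adjusted p = 0.0969) and without sham replicate 2 (0.0635) or 4 (0.0871), and it was 0.97 when the rows of the gene were averaged.

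Col3a1, of type III collagen, had 9.15, 9.71, 9.28, 9.63 and 9.31 in BDL and 9.23, 6.45, 7.31 and 6.38 in sham. Replicate 1 lay among the BDL arrays, and the difference was 2.07 ± 0.37 with and 2.70 ± 0.27 without it (adjusted p = 0.000133 and 4.93e-08 in limma). Col6a3, of the microfibril collagen VI, rose by 1.29 ± 0.23 with and 1.70 ± 0.17 without replicate 1. The median of the list was 0.53, and no member separated the groups without overlap, beside 20.1% of all genes tested. Without replicate 1, 9 rose, Col6a1 (0.54 ± 0.20 with and 0.87 ± 0.14 without it) and Col8a1 (0.35 ± 0.17 with and 0.61 ± 0.14 without it) being added, and the median was 0.80. Col5a1 and Col5a2, chains of collagen V, rose by 0.68 ± 0.19 and 0.67 ± 0.19 with replicate 1 and by 0.96 ± 0.16 and 0.98 ± 0.14 without it. Col12a1, Col14a1 and Col15a1 did not pass, at 0.13 ± 0.21, 0.45 ± 0.23 and 0.03 ± 0.12 with and 0.41 ± 0.19, 0.55 ± 0.25 and 0.06 ± 0.13 without it.

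Of 15 basement membrane genes tested, 9 rose and 1 fell. Nid1, a nidogen that links laminin to collagen IV, had 10.22, 9.98, 10.35, 10.31 and 10.68 in BDL and 8.28, 7.49, 7.62 and 7.64 in sham. All BDL arrays were above the highest sham array, replicate 1, by more than 1 log2 unit, and the rise was 2.55 ± 0.20 with and 2.72 ± 0.21 without it (adjusted p = 6.14e-10 and 8.22e-10 in limma). Col4a1 (1.16 ± 0.13) and Col4a2 (1.09 ± 0.14), the chains of collagen IV, and Lamc1, a laminin chain (1.01 ± 0.16), rose too, and without replicate 1 they stood at 1.31 ± 0.12, 1.21 ± 0.14 and 1.22 ± 0.15. The laminin chain Lama3 fell (-0.52 ± 0.09 with and -0.57 ± 0.10 without replicate 1). Without replicate 1, 8 rose, the call of the laminin chain Lamb3 being lost (0.51 ± 0.14 with and 0.40 ± 0.15 without it).

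Of 20 matrix enzymes, inhibitors and crosslinkers tested, 12 rose and none fell. Timp1, an inhibitor of matrix metalloproteinases, had 6.34, 6.22, 6.50, 6.74 and 6.57 in BDL and 5.61, 4.02, 4.42 and 4.39 in sham. Replicate 1 was the highest sham array but under all BDL arrays, and the rise was 1.87 ± 0.25 with and 2.20 ± 0.22 without it (adjusted p = 3.04e-06 and 6.27e-08 in limma); the sham mean was under background, so the rise was at least 1.48. Mmp7, a metalloproteinase of injured epithelium, had 6.55, 6.72, 6.82, 6.77 and 7.08 in BDL and 4.60, 5.43, 5.22 and 5.34 in sham, with no overlap and a rise of 1.64 ± 0.18 (1.46 ± 0.18 without replicate 1), or 0.74 when its rows were averaged. Mmp12, described above, was at 2.94 ± 0.23 without replicate 1. Mmp14, a membrane-bound collagenase, rose by 1.14 ± 0.17 with and 1.30 ± 0.17 without replicate 1. Of the collagen crosslinking enzymes, Loxl1 rose by 0.78 ± 0.18 with and 1.00 ± 0.16 without it, and Lox by at least 0.61, with a sham mean under background (0.93 ± 0.25 with and 1.28 ± 0.21 without it as fitted). Serpinh1, the chaperone of procollagen, rose by 0.98 ± 0.29 with and 1.37 ± 0.26 without it. Without replicate 1, 13 rose, where Mmp2 (0.63 ± 0.26 with and 0.99 ± 0.23 without it) and Plod2 (0.70 ± 0.26 with and 1.07 ± 0.22 without it, as fitted, with a sham mean under background) were gained and Mmp9 (0.62 ± 0.21 with and 0.55 ± 0.23 without it) was lost.

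Of 16 matrix glycoproteins and proteoglycans tested, 11 rose and 1 fell. Thbs1, a thrombospondin that activates latent TGF-beta, had 7.52, 7.04, 7.51, 7.77 and 7.69 in BDL and 6.62, 5.27, 5.23 and 5.68 in sham, and rose by 1.81 ± 0.24 with and 2.11 ± 0.21 without replicate 1. Lum, the proteoglycan lumican, had 7.33, 7.37, 7.48, 7.50 and 7.56 in BDL and 6.95, 5.47, 6.08 and 5.39 in sham, with a rise of 1.48 ± 0.27 with and 1.80 ± 0.25 without that array. Both genes kept the groups apart with replicate 1 as the highest sham array. Sparc, a collagen-binding glycoprotein, rose by 1.21 ± 0.24 with and 1.51 ± 0.22 without it, Eln, elastin, by 1.12 ± 0.20 and 1.23 ± 0.22, and Postn, periostin, by 0.89 ± 0.28 and 1.26 ± 0.25. Tnc, tenascin C, rose by 0.83 ± 0.26 with and 1.25 ± 0.21 without replicate 1. Fibronectin, Fn1, was at 0.14 ± 0.11 (adjusted p = 0.469 in limma) with and 0.08 ± 0.12 without it, and Ecm1 fell (-0.89 ± 0.15 with and -0.80 ± 0.16 without it). Over the 4 matrix lists together, 39 of 65 tested genes rose and 2 fell with replicate 1, and 41 rose and 2 fell without it. Replicate 1 was the highest of the sham arrays for 49 of the 65 and above every BDL array for 19. The shares over all genes tested were not counted, so how far these counts are particular to matrix genes is not known.

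**Figure D4:**
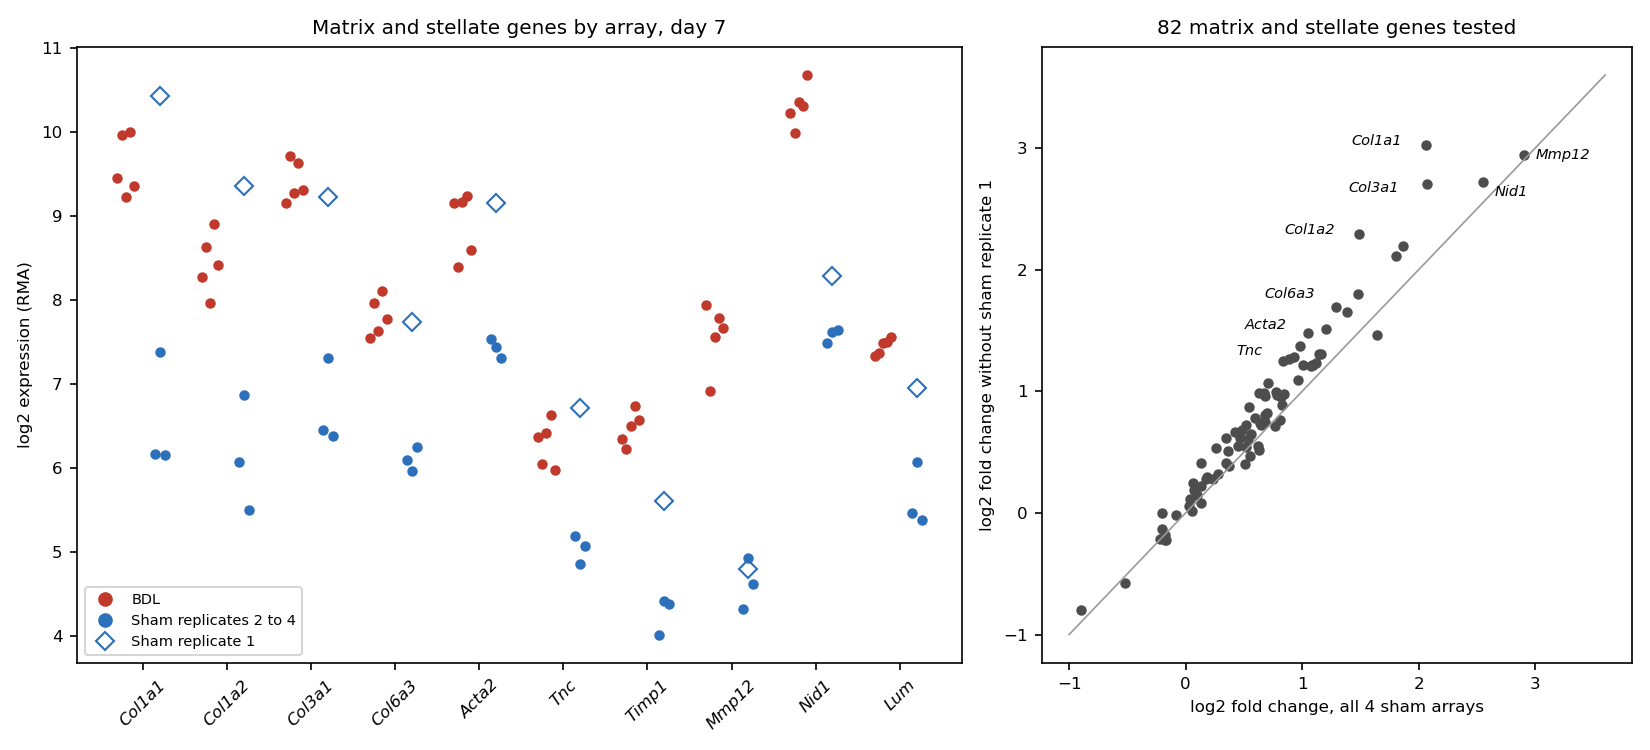
Left, log2 expression (y axis) of 10 matrix and stellate genes in BDL (red) and sham (blue) arrays of day 7, with sham replicate 1 as an open diamond. Right, log2 fold change with all 4 sham arrays (x axis) against that without replicate 1 (y axis) for the matrix and stellate genes tested, with the line of equality; Col1a1, Col1a2 and Col3a1 lie farthest above it.

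Stellate cell and portal fibroblast markers rose in part. Acta2, the smooth muscle actin of myofibroblasts, had 9.15, 8.39, 9.16, 9.24 and 8.59 in BDL and 9.16, 7.53, 7.44 and 7.31 in sham. Replicate 1 lay among the BDL arrays, and the difference was 1.05 ± 0.27 with and 1.48 ± 0.22 without it (adjusted p = 0.00636 and 1.38e-05 in limma). Pdgfrb, the receptor that drives stellate cell growth, had 7.54, 7.55, 8.29, 8.22 and 8.10 in BDL and 7.26, 6.62, 6.59 and 7.00 in sham, with a rise of 1.07 ± 0.24 with and 1.20 ± 0.26 without replicate 1. Its sham arrays were all under its BDL arrays. Vim, vimentin, rose by 1.39 ± 0.20 with and 1.65 ± 0.18 without it (0.91 when its rows were averaged), Gas6, a ligand of TAM receptors, by 1.09 ± 0.22 and 1.21 ± 0.23, and Cygb, a globin of stellate cells, by 0.97 ± 0.23 and 1.10 ± 0.25. Of 17 markers tested, 8 rose and none fell, and 9 rose without replicate 1, where Tagln (0.47 ± 0.19 with and 0.61 ± 0.20 without it) and Fbln2 (0.26 ± 0.15 and 0.53 ± 0.11) were gained and Lrat (0.77 ± 0.26 and 0.72 ± 0.28), which makes retinyl esters in stellate cells, was lost. Des (0.18 ± 0.21 and 0.30 ± 0.23), Reln (0.05 ± 0.18 and 0.02 ± 0.20) and the portal fibroblast marker Thy1 (0.03 ± 0.15 and 0.11 ± 0.16) did not pass.

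Genes of TGF-beta signalling, which drives collagen synthesis, moved at the level of ligand and receptor. Tgfb1, the main ligand, had 8.39, 8.22, 8.67, 8.54 and 8.56 in BDL and 7.62, 7.26, 7.19 and 6.98 in sham. The groups did not overlap, at 1.21 ± 0.19 (adjusted p = 1.91e-05 in limma). Tgfb2, a second ligand, rose by 0.92 ± 0.15, and Tgfbr2, the type II receptor, had 8.64, 8.80, 8.68, 8.63 and 8.75 in BDL and 7.73, 7.58, 7.73 and 7.36 in sham, a rise of 1.10 ± 0.15. Tgfb3 (0.22 ± 0.22) and the type I receptor Tgfbr1 (0.24 ± 0.12) did not pass. Among targets, Tgfbi rose by 1.08 ± 0.17 and Ccn2, connective tissue growth factor, by 0.80 ± 0.26, while the inhibitory Smad7 was at 0.29 ± 0.20, not past the threshold. Itgav, the integrin chain that activates latent TGF-beta, rose by 0.84 ± 0.14. Of 19 members tested, 9 rose and none fell; without replicate 1 9 rose too, with Ltbp2 (0.59 ± 0.16) gained and Inhbb (0.59 ± 0.22) lost.

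Macrophage markers were higher in BDL. Of 17 markers of monocyte-derived macrophages tested, 16 rose, which is a larger share than in any of the other lists, and Ly6c2, of inflammatory monocytes, did not pass (1.03 ± 0.38). Cd68, a lysosomal protein of macrophages, had 10.02, 9.40, 10.27, 10.18 and 10.13 in BDL and 7.85, 8.00, 8.04 and 7.82 in sham. Even BDL replicate 2, the lowest of its group, was more than 1 log2 unit above sham, and the rise was 2.07 ± 0.23 (adjusted p = 2.73e-07 in limma). Ctss, cathepsin S, which trims the invariant chain of MHC class II, had 10.25, 10.37, 10.14, 10.42 and 10.80 in BDL and 8.94, 8.83, 8.86 and 8.18 in sham, a rise of 1.69 ± 0.22. Ccr2, the receptor by which monocytes leave the marrow, rose by at least 1.26 (1.55 ± 0.18 as fitted, with a sham mean under background), Itgam by 1.43 ± 0.22, the galectin Lgals3 by 1.45 ± 0.18, and Trem2, a receptor of scar-associated macrophages, by 1.19 ± 0.18.

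Markers of Kupffer cells, the resident macrophages of the sinusoid, were also higher. Of 12 tested, 10 rose and none fell, with a median of 1.05; without sham replicate 1, 9 rose, Slc40a1 being lost. Cd5l, a secreted scavenger protein, had 10.46, 10.23, 10.71, 10.45 and 10.61 in BDL and 8.51, 8.87, 9.02 and 8.52 in sham, groups that stood apart by 1.76 ± 0.25 (adjusted p = 6.10e-06 in limma). Fabp7, a fatty acid-binding protein, rose by 2.21 ± 0.28, Vsig4, a complement receptor, by 1.11 ± 0.26, and Timd4, a receptor for dying cells, by 1.00 ± 0.21. Clec4f, a lectin specific to Kupffer cells in mouse, rose by 0.69 ± 0.17, and Cd163 was at 0.38 ± 0.25, not past the threshold.

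Among other leukocytes the picture was uneven. Of 11 neutrophil markers tested, 6 rose and none fell. S100a8, a subunit of calprotectin, rose by at least 0.51 (1.18 ± 0.34 as fitted, adjusted p = 0.0138 in limma), with a sham mean under background. S100a9, its partner, was called higher (adjusted p = 0.0264) with both group means under background, so no size is given, and the call was lost without BDL replicate 2 (0.0595) or 5 (0.0621) or sham replicate 4 (0.139). Il1b, which macrophages make as well, had 6.87, 7.32, 6.81, 7.16 and 7.34 in BDL and 5.36, 6.69, 5.65 and 5.75 in sham. Sham replicate 2 lay near the BDL arrays, and the rise of 1.24 ± 0.35 (adjusted p = 0.0121) was lost without sham replicate 1 (adjusted p = 0.0520). Cxcr2 (0.89 ± 0.19) and Csf3r (0.88 ± 0.14), receptors of mature neutrophils, rose, whereas the granule genes Mpo (-0.07 ± 0.14), Elane (-0.31 ± 0.14) and Ltf (0.15 ± 0.18) did not pass. Lcn2 belongs to this list and is also made by hepatocytes. Of 11 lymphocyte markers tested none rose and 2 fell. Cd79a, of the B cell receptor, fell by at least 0.21 (0.74 ± 0.18 as fitted), with a BDL mean under background, and Cd4 fell by 0.58 ± 0.21 (adjusted p = 0.0471), a call lost in 8 of 19 other settings (up to 0.164), among them without BDL replicate 1, 2 or 3 or sham replicate 2, 3 or 4. The T cell chains Cd3d (0.08 ± 0.17) and Cd3e (-0.18 ± 0.24) did not pass. None of 15 markers of sinusoidal endothelium was called, with values between -0.49 and 0.42 and Stab2, a scavenger receptor of these cells, at 0.12 ± 0.18.

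Chemokines that attract monocytes led the inflammatory genes. Ccl2, the ligand of Ccr2, had 7.85, 8.41, 8.14, 8.18 and 8.92 in BDL and 5.79, 5.24, 5.63 and 5.74 in sham. The groups were about 2 log2 units apart at their nearest arrays, and the rise was 2.70 ± 0.26 (adjusted p = 2.76e-08 in limma). Ccl6 had 8.12, 7.68, 8.15, 8.58 and 8.53 in BDL and 5.86, 6.05, 5.97 and 5.27 in sham, a rise of 2.43 ± 0.25, and Cxcl14 rose by 2.16 ± 0.34. Vcam1, an adhesion molecule for leukocytes, had 8.76, 9.12, 9.34, 9.37 and 9.36 in BDL and 7.27, 7.52, 7.40 and 7.06 in sham, with no overlap at 1.88 ± 0.21, and Icam1 rose by 1.74 ± 0.18. The interferon-induced Cxcl9 (1.79 ± 0.40) and Cxcl10 (1.85 ± 0.38) and the cytokine Tnf (0.90 ± 0.17) rose. Il6 was under the filter, and Ccl5 was at 0.09 ± 0.32. Of 20 members tested 14 rose and none fell; without sham replicate 1, 13 rose.

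Acute phase genes of the hepatocyte rose in 15 of 23 tested, and none fell. Orm2, an orosomucoid, had 13.20, 13.33, 12.86, 13.40 and 12.92 in BDL and 9.92, 11.28, 11.76 and 9.08 in sham. The BDL arrays lay close together while the sham arrays ran over more than 2 log2 units, and the rise was 2.63 ± 0.30 (adjusted p = 3.28e-07 in limma), or 1.68 against all 9 sham arrays. Saa3, a serum amyloid A made outside hepatocytes too, had 9.91, 8.88, 8.55, 8.63 and 9.21 in BDL and 7.13, 6.30, 6.73 and 5.81 in sham, a rise of 2.55 ± 0.38, or 1.50 against all 9 sham arrays. Lcn2, described above, was at 2.11 in that comparison. Sham replicates 2 and 3 were the highest sham arrays for Orm2, Orm3 and Lcn2. Saa2 (2.03 ± 0.49), the metalloreductase Steap4 (1.51 ± 0.19), the interleukin-1 receptor antagonist Il1rn (1.64 ± 0.22) and ceruloplasmin, Cp (0.99 ± 0.12), rose. The fibrinogen chains Fga (0.07 ± 0.12), Fgb (0.03 ± 0.09) and Fgg (0.01 ± 0.10) and hepcidin, Hamp (0.01 ± 0.09), did not pass. Without sham replicate 1, 12 of the 23 rose. Saa1 was not analysed here.

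Cell cycle genes rose at day 7. Of 26 tested, 21 rose and none fell, with a median of 0.82 over 28 measured, and 22 rose without sham replicate 1. Mki67, the Ki-67 antigen of cycling cells, had 7.77, 7.08, 8.20, 7.15 and 7.93 in BDL and 6.22, 6.07, 5.89 and 5.90 in sham. BDL replicates 2 and 4 were the lowest of their group and still above all sham arrays, at 1.61 ± 0.23 (adjusted p = 7.73e-06 in limma). Top2a, the topoisomerase that untangles chromosomes, had 6.29, 5.69, 6.33, 5.22 and 6.58 in BDL and 4.82, 4.43, 4.27 and 3.99 in sham. Ccnb2, a mitotic cyclin, had 7.48, 6.84, 7.67, 6.72 and 7.12 in BDL and 5.65, 5.48, 5.15 and 5.73 in sham. Replicates 2 and 4 were again the lowest of BDL, and the rises were 1.64 ± 0.27 for Top2a, at least 1.02 as its sham mean was under background, and 1.66 ± 0.23 for Ccnb2. Prc1, of the spindle midzone, rose by at least 1.44 (1.59 ± 0.22 as fitted), its sham mean being under background. Genes of DNA replication rose as well, with Mcm6 (1.33 ± 0.26) and Mcm2 (1.31 ± 0.20) of the replicative helicase and Pcna, the sliding clamp (0.54 ± 0.16). Ccnd1, the G1 cyclin, rose by 1.18 ± 0.28, while thymidylate synthase, Tyms (0.04 ± 0.10), Ccne1 (0.36 ± 0.15) and E2f1 (0.28 ± 0.13) did not pass.

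Promoters of 3 of the cell cycle genes with the largest rises are shown because mitotic genes share promoter elements, the CCAAT box bound by NF-Y and the cell cycle homology region TTTGAA. Each runs 5′ to 3′ on the strand of the gene, with matches to CCAAT or TTTGAA on either strand in capitals, from RefSeq on GRCm38.p6. The motifs were searched separately, so matches may share letters.
Ccnb2: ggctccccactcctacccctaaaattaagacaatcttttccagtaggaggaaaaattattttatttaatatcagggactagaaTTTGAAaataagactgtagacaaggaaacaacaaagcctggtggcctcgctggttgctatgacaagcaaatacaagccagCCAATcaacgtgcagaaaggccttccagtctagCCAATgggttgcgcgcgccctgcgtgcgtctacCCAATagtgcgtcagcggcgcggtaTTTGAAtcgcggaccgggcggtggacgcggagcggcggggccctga
Top2a: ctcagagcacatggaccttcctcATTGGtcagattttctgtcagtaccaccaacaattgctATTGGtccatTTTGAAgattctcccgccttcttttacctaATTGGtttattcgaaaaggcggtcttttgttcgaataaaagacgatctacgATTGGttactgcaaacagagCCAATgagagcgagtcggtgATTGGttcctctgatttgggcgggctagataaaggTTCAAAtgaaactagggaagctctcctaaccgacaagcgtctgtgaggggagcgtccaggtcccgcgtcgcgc
Mki67: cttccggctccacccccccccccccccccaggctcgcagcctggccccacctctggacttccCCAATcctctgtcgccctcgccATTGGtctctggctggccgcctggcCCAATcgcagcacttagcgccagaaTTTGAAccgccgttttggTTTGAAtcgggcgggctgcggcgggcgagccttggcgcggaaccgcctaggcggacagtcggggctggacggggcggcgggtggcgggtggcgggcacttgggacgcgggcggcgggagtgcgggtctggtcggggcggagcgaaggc
These windows lie at chr9:70421505-70421804 (Ccnb2), chr11:99024140-99024439 (Top2a), chr7:135716330-135716629 (Mki67), all on the minus strand. Ccnb2 held 3 CCAAT and 2 TTTGAA matches, Top2a 6 and 2, and Mki67 3 and 2. Of the 21 cell cycle genes that rose, 16 had a promoter in the table. CCAAT was found in 16 of these and TTTGAA in 11, both together in 11, or 68.8%. Both were found in 11 of the 24 listed cell cycle genes with a promoter, in 5.74% of the genes tested and in 6.95% of all promoters of this length.

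Enzymes of bile acid synthesis were lower in part. Cyp7a1, which catalyses the rate-limiting step of classical synthesis, had 11.36, 11.51, 11.80, 11.63 and 11.06 in BDL and 10.86, 10.87, 10.84 and 9.81 in sham. All BDL arrays were above all sham arrays, and sham replicate 4 was the lowest. The difference of 0.87 ± 0.79 did not pass (adjusted p = 0.503 in limma) in the fit that shares an estimate of spread over all groups. The SD of Cyp7a1 at day 7 was 0.28 in BDL and 0.52 in sham. It was 2.76 in BDL and 0.62 in sham at day 3, and 0.31 in BDL at day 21. In the day 1 groups it was 0.96 in BDL and 1.06 in sham. In the fit of the 9 day 7 arrays alone the adjusted p was 0.0132. Cyp8b1, the hydroxylase needed for cholic acid, had 9.03, 8.34, 9.36, 9.13 and 7.78 in BDL and 9.65, 10.75, 10.32 and 10.68 in sham. Its groups did not overlap, at a log2 fold change of -1.62 ± 0.38 (adjusted p = 0.0028). Cyp7b1, of the alternative pathway and male-biased in mouse, had 8.76, 8.74, 8.71, 8.70 and 9.02 in BDL and 10.18, 11.10, 10.96 and 11.37 in sham. The BDL arrays lay close together and more than 1 log2 unit under sham, at -2.12 ± 0.26.

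Of 16 synthesis genes tested, 6 fell and 1 rose. Slc27a5, which activates bile acids before conjugation, fell by 0.46 ± 0.14 and Cyp46a1, a cholesterol hydroxylase best known from brain, by 0.41 ± 0.12 (adjusted p = 0.0192 in limma), a call lost without sham replicate 1 (0.0690) or 2 (0.0798) or BDL replicate 4 (0.0740). Hsd17b4 (-0.36 ± 0.09) and Scp2 (-0.31 ± 0.10), peroxisomal enzymes of side chain shortening, fell, and Acox2 (0.37 ± 0.12), of the same step, rose, a call lost without sham replicate 1 (adjusted p = 0.139). Cyp27a1 (-0.29 ± 0.13), the first enzyme of the alternative pathway, Baat (-0.12 ± 0.13), which conjugates bile acids to taurine, and Cyp2c70 (0.23 ± 0.17), which makes muricholic acid in mice, did not pass.

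Carriers that take up bile acids and organic anions from blood were lower. Slc10a1, the sodium-dependent bile acid carrier NTCP, had 11.34, 10.78, 11.79, 11.41 and 11.22 in BDL and 11.63, 12.15, 12.24 and 12.19 in sham. Sham replicate 1 lay among the BDL arrays, and the log2 fold change was -0.75 ± 0.22 with and -0.89 ± 0.23 without it (adjusted p = 0.014 and 0.00686 in limma). Slc22a7, an organic anion transporter, had 6.20, 6.46, 6.36, 6.21 and 6.21 in BDL and 6.07, 8.10, 8.22 and 7.82 in sham. Again replicate 1 was at the level of BDL, at -1.27 ± 0.28 with and -1.76 ± 0.20 without it. Slco1b2, a liver-specific organic anion carrier, was at -0.60 ± 0.17, and Slc22a30 at -1.72 ± 0.41, at least 0.78 in size, with a BDL mean under background. Together with Slco1a1, 5 of 8 uptake genes fell; Ephx1, an epoxide hydrolase counted in this list, rose by 0.64 ± 0.19.

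Basolateral exporters, which return bile acids and conjugates to blood, rose in 4 of 5 tested. Abcc4, the exporter MRP4, had 6.42, 6.14, 6.20, 6.22 and 6.50 in BDL and 5.88, 5.28, 5.14 and 5.62 in sham, a rise of 0.82 ± 0.15 (adjusted p = 0.000157 in limma). Abcc3, the exporter MRP3, had 10.92, 10.97, 11.08, 10.83 and 11.10 in BDL and 9.98, 10.27, 10.25 and 10.35 in sham, a rise of 0.76 ± 0.13. For both the groups did not overlap. Abcc1 rose by 0.83 ± 0.16 and Abcc5 by 0.66 ± 0.16, while Abcc6 fell by 0.54 ± 0.15. Slc51a was under the filter, and Slc51b was not analysed here.

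Of 10 canalicular pumps tested, 2 rose and 1 fell, beside 14.2% and 4.97% of all genes tested. Abcb11, the bile salt export pump, had 11.81, 11.37, 11.47, 11.55 and 11.54 in BDL and 11.18, 11.22, 11.28 and 11.49 in sham. The groups overlapped and the difference of 0.26 ± 0.21 did not pass (adjusted p = 0.459 in limma). Abcb1a, a multidrug exporter, had 7.28, 7.64, 7.61, 7.16 and 7.63 in BDL and 6.50, 6.27, 6.10 and 5.50 in sham, and rose by 1.37 ± 0.23 (adjusted p = 5.39e-05). Abcb4, the phospholipid flippase, rose by 0.49 ± 0.17 (adjusted p = 0.043), a call lost without any 1 of BDL replicates 1, 3, 4 and 5 and sham replicates 1, 3 and 4, with the highest adjusted p (0.157) without sham replicate 1. Abcg8, of the sterol exporter, fell by 0.67 ± 0.16, while its partner Abcg5 was at -0.14 ± 0.15 and the conjugate pump Abcc2 at -0.09 ± 0.10.

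Of 14 bile acid and xenobiotic receptors and feedback genes tested, 2 rose and 2 fell, beside 14.2% and 4.97% of all genes tested. Nr1h4, the bile acid receptor FXR, had 9.33, 9.18, 9.39, 9.38 and 9.19 in BDL and 9.36, 9.98, 9.79 and 9.53 in sham. The fall of 0.37 ± 0.12 (adjusted p = 0.0264 in limma) was lost with only day 7 arrays (0.0520) and without BDL replicate 2 or 5 or sham replicate 2 or 3 (up to 0.148). Nr0b2, the repressor SHP that FXR induces, had 8.82, 7.99, 7.47, 8.58 and 8.57 in BDL and 7.70, 8.52, 7.07 and 9.79 in sham. These sham arrays spanned the BDL arrays, and the difference was 0.02 ± 0.35 (adjusted p = 0.982). Nr1i2, the xenobiotic receptor PXR, rose by 0.66 ± 0.14, and S1pr2, a receptor that binds conjugated bile acids, by 0.65 ± 0.13. Klb, the coreceptor for the hormone FGF15, was at -0.63 ± 0.22 (adjusted p = 0.0416), a call lost without any 1 of the 9 arrays (up to 0.138), with no filter (0.0554) and against all 9 sham arrays (0.103).

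Male-biased liver genes fell and female-biased ones mostly were not called. Of 16 male-biased genes tested, 11 fell and none rose, with a median of -1.20, and 12 fell without sham replicate 1, Cyp2d9 being added. Besides those named above, Serpina1e (-1.55 ± 0.18), Cyp4a12b (-1.20 ± 0.30) and Cyp2u1 (-1.14 ± 0.17) fell, whereas Mup20 (0.01 ± 0.14) and C8a (-0.10 ± 0.12) did not pass. Of 7 female-biased genes tested only Nipal1, a magnesium transporter relative, rose, beside 14.2% of all genes tested. Nipal1 had 8.04, 8.54, 8.18, 8.37 and 7.75 in BDL and 7.18, 6.21, 6.08 and 6.46 in sham, a rise of 1.69 ± 0.35 (adjusted p = 0.00083 in limma). Cux2 (-0.06 ± 0.22), a repressor of male-biased genes in female liver, did not pass. Ghr, the growth hormone receptor, had 8.80, 8.56, 8.75, 8.75 and 8.55 in BDL and 9.43, 9.52, 9.56 and 9.85 in sham, and fell by 0.91 ± 0.18. Igfals, the subunit that stabilises circulating IGF1, fell by 1.01 ± 0.26. Stat5b (0.01 ± 0.13), the signal carrier of the receptor, and Igf1 (-0.10 ± 0.13) did not pass.

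Cytochromes P450 of drug metabolism fell in 9 of 24 tested and none rose. Cyp2c37, an epoxygenase of arachidonic acid, had 8.68, 7.63, 8.47, 8.21 and 8.44 in BDL and 9.95, 10.37, 10.89 and 10.36 in sham, with a log2 fold change of -2.11 ± 0.21 (adjusted p = 2.76e-08 in limma). Cyp2d40 had 6.87, 6.37, 6.47, 6.19 and 6.38 in BDL and 7.14, 8.37, 8.65 and 8.47 in sham, with sham replicate 1 the lowest of its group and still above BDL, at -1.70 ± 0.24. Cyp2c54 stood at -1.45 ± 0.38. Members of the Cyp2c and Cyp2d families are near-identical, so the copy is uncertain. Cyp2e1, the ethanol oxidase of pericentral cells, fell by 0.46 ± 0.11, and without sham replicate 1 11 of the 24 fell, Cyp2c50 (-1.02 ± 0.31) and Cyp2d9 (-1.03 ± 0.24) being added.

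Of 18 pericentral genes tested 3 fell and 1 rose. Glul, glutamine synthetase of the innermost pericentral cells, had 11.01, 10.77, 10.71, 10.63 and 10.63 in BDL and 10.84, 11.45, 11.57 and 11.42 in sham. Sham replicate 1 lay among the BDL arrays, and the difference of -0.57 ± 0.29 did not pass (adjusted p = 0.176 in limma), although it passed with only day 7 arrays (0.0147), with the rows of a gene averaged (0.0269) and against all 9 sham arrays (0.0486). Slc1a2, a glutamate transporter of the same cells, was at -0.62 ± 0.22 (adjusted p = 0.0498), a call lost in 12 of 19 other settings (up to 0.153), among them without any 1 of BDL replicates 2 to 5 or any 1 sham array. Gstm3, a glutathione transferase in this list, had 12.44, 12.22, 12.76, 12.39 and 12.75 in BDL and 9.85, 9.36, 9.43 and 10.00 in sham, a rise of 2.85 ± 0.46, or 3.59 against all 9 sham arrays. Of 14 periportal genes tested 1 rose, Hsd17b13, a lipid droplet enzyme (0.58 ± 0.13), while urea cycle genes such as Cps1 (0.24 ± 0.11) and Ass1 (-0.01 ± 0.28) did not pass.

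Fatty acid oxidation genes fell in 8 of 18 tested and none rose. Ppara, the receptor that drives this pathway, had 7.94, 8.03, 8.21, 7.97 and 7.87 in BDL and 8.61, 9.31, 8.98 and 9.11 in sham. No array overlapped, at -0.99 ± 0.14 (adjusted p = 9.66e-06 in limma). Fabp1, the liver fatty acid-binding protein, had 10.58, 10.98, 10.85, 9.71 and 9.97 in BDL and 12.54, 12.50, 12.46 and 12.55 in sham. The sham arrays lay close together and BDL replicates 4 and 5 were lowest, at -2.10 ± 0.38. Cpt2 (-0.55 ± 0.11), of mitochondrial import, and Acadvl (-0.55 ± 0.11), of the first oxidation step, fell, while Cpt1a (-0.28 ± 0.21) and Ehhadh (-0.07 ± 0.24) did not pass. Of 22 genes of fatty acid and cholesterol synthesis, Thrsp (-0.95 ± 0.27) and Me1, malic enzyme (-0.65 ± 0.17), fell and Hmgcs1, of cholesterol synthesis (0.90 ± 0.30), rose. The call of Thrsp was lost against all 9 sham arrays (adjusted p = 0.425) and without sham replicate 3 (0.0788) or 4 (0.0558), that of Me1 against all 9 sham arrays (0.380) and that of Hmgcs1 without sham replicate 1 (0.0933) or 3 (0.0900) or BDL replicate 1, 3 or 5 (up to 0.0672).

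Genes of the oxidant response under NRF2 rose in 8 of 12 tested and none fell. Hmox1, heme oxygenase, had 8.98, 8.90, 9.37, 9.22 and 9.06 in BDL and 7.67, 7.60, 7.43 and 7.38 in sham. The groups were more than 1 log2 unit apart throughout, at 1.59 ± 0.18 (adjusted p = 3.84e-07 in limma). Srxn1, sulfiredoxin, rose by 1.24 ± 0.11, and Nqo1, a quinone reductase, by 1.20 ± 0.17. Gclc (-0.25 ± 0.21) and Gclm (0.17 ± 0.14), the subunits that make glutathione, did not pass. Of 15 genes of the unfolded protein and integrated stress responses only Cdkn1a and Atf3, a stress-induced repressor (1.46 ± 0.22), rose, beside 14.2% of all genes tested. The chaperone Hspa5 was at 0.12 ± 0.15 and Ddit3 at -0.08 ± 0.18.

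Among secreted plasma proteins and hepatocyte transcription factors most genes were not called. Alb, albumin, had 14.14, 14.18, 14.21, 14.13 and 14.19 in BDL and 14.17, 14.04, 14.13 and 14.08 in sham, groups that overlapped at 0.07 ± 0.07 (adjusted p = 0.549 in limma). Of 30 plasma proteins and hormone receptors tested, 9 fell and 2 rose. Apoa4, an apolipoprotein, had 11.05, 11.08, 11.89, 11.14 and 11.33 in BDL and 9.78, 9.65, 10.14 and 10.06 in sham, a rise of 1.39 ± 0.30, or 0.88 against all 9 sham arrays. Egfr (-0.60 ± 0.19) fell, a call lost without BDL replicate 3 (0.0606) or sham replicate 2 (0.0634) or 3 (0.0807). Of 20 transcription factors tested 4 fell and 1 rose. Hnf4a, a central regulator of hepatocyte identity, had 11.13, 10.79, 10.76, 11.08 and 10.91 in BDL and 10.99, 10.94, 11.20 and 10.70 in sham, at -0.02 ± 0.12 (adjusted p = 0.928). Cebpa fell by 0.58 ± 0.13, with BDL replicate 2 at the level of sham, and Foxa2 was at -0.51 ± 0.15, or -0.32 without sham replicate 3, where the call was lost (0.104), as it was with only day 7 arrays (0.0662).

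No marker of bordering organs passed the test. None of 4 exocrine pancreas, 6 mesothelium, 5 adipocyte and 2 erythroid markers tested was past the threshold, and their list medians lay between -0.19 and 0.00. The mean over the mesothelium list was 5.22 to 5.80 in BDL arrays and 5.33 to 6.08 in sham arrays, with sham replicate 1 the highest array, and that over the pancreas list 4.33 to 4.46 in BDL and 4.50 to 4.67 in sham.

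The effect of ligation at day 7 was set against that at day 1, each with its own sham arrays. The difference passed for 637 genes (4.33% of the genes tested), 511 upward and 126 downward. Against day 3 only 8 differences passed (0.0544%), 6 upward and 2 downward. The log2 fold change of Cyp7a1 was -5.65 on day 1, then -3.43 (day 3) and 0.87 (day 7), and day 7 minus day 1 was 6.52 ± 1.17 (adjusted p = 0.00193 in limma). The day 1 BDL mean of Cyp7a1 was 4.29, under background, so its day 1 value and this difference are as fitted. The day 3 value of Cyp7a1 averages BDL arrays that lay far apart, at 10.99, 10.08, 5.74, 6.84 and 4.62, against sham arrays at 11.53 and 10.65. Cyp8b1 was -5.07, -5.36 and -1.62 on days 1, 3 and 7, so its fall was smaller at day 7 than at day 1 (3.44 ± 0.57, adjusted p = 0.00101) and day 3 (3.73 ± 0.62, adjusted p = 0.00771). Slco1a1 was -2.14, -5.84 and -5.31, a fall larger at day 7 than at day 1 (-3.17 ± 0.50, adjusted p = 0.00094). Its day 3 value was fitted with a BDL mean of 4.94, just under background. Mup21 was -1.04, -4.33 and -4.44, again larger at day 7 than at day 1 (-3.40 ± 0.48). The BDL means of Mup21 at days 3 (3.57) and 7 (4.01) were under background, so the values of those days and the difference are as fitted. Of the lists, 13 of 26 cell cycle genes, 9 of 17 monocyte-derived macrophage markers and 9 of 12 Kupffer cell markers had a higher effect at day 7 than at day 1 and none a lower one. Mki67 was -0.40 at day 1 and 1.31 at day 3, and day 7 minus day 1 was 2.01 ± 0.34 (adjusted p = 0.00115).

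Of the day 1 arrays, sham replicates 1 and 3 and BDL replicates 2 and 3 had a low spread of log2 values over genes (SD 1.96 to 1.98, against 2.06 to 2.17 in the other arrays). With these 4 arrays as a term of the fit 1076 differences from day 1 passed. Day 1 has 3 sham arrays, and leaving out the 4 arrays keeps only sham replicate 2 among them. That fit is therefore given by the size of the differences only. In it the difference from day 1 was 5.53 for Cyp7a1, 3.39 for Car3, a carbonic anhydrase, -2.16 for Serpina4-ps1 and -2.42 for Slco1a1. The part of the 4 arrays in the counts of list members was not tested.

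BDL arrays of day 21 were set against the same 4 sham arrays, since no sham group of day 21 was analysed here, so day 7 and day 21 values share their controls and are given side by side only. Col1a1 was 2.06 at day 7 and 2.71 at day 21, Timp1 1.87 and 2.45, Krt19 0.70 and 1.05, and Mki67 1.61 and 0.48. These values include sham replicate 1. The sham mean of Col1a1 was 7.53 with and 6.57 without it, beside BDL means of 9.60 at day 7 and 10.25 at day 21. For Timp1 the sham arrays had 5.61 in replicate 1 and 4.02, 4.42 and 4.39 in the others. Its BDL means were 6.5 at day 7 and 7.1 at day 21. Slco1a1 was -5.31 at day 7 and -6.93 at day 21, Cyp8b1 -1.62 and -3.02, and Sprr1a 5.34 and 5.66. Those of Timp1 and Sprr1a were fitted against sham means under background. The day 21 value of Slco1a1 was fitted with a BDL mean of 3.92, also under background. The day 7 values alone say nothing on whether these genes differ between the 2 days, which was not tested.

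**Figure D5:**
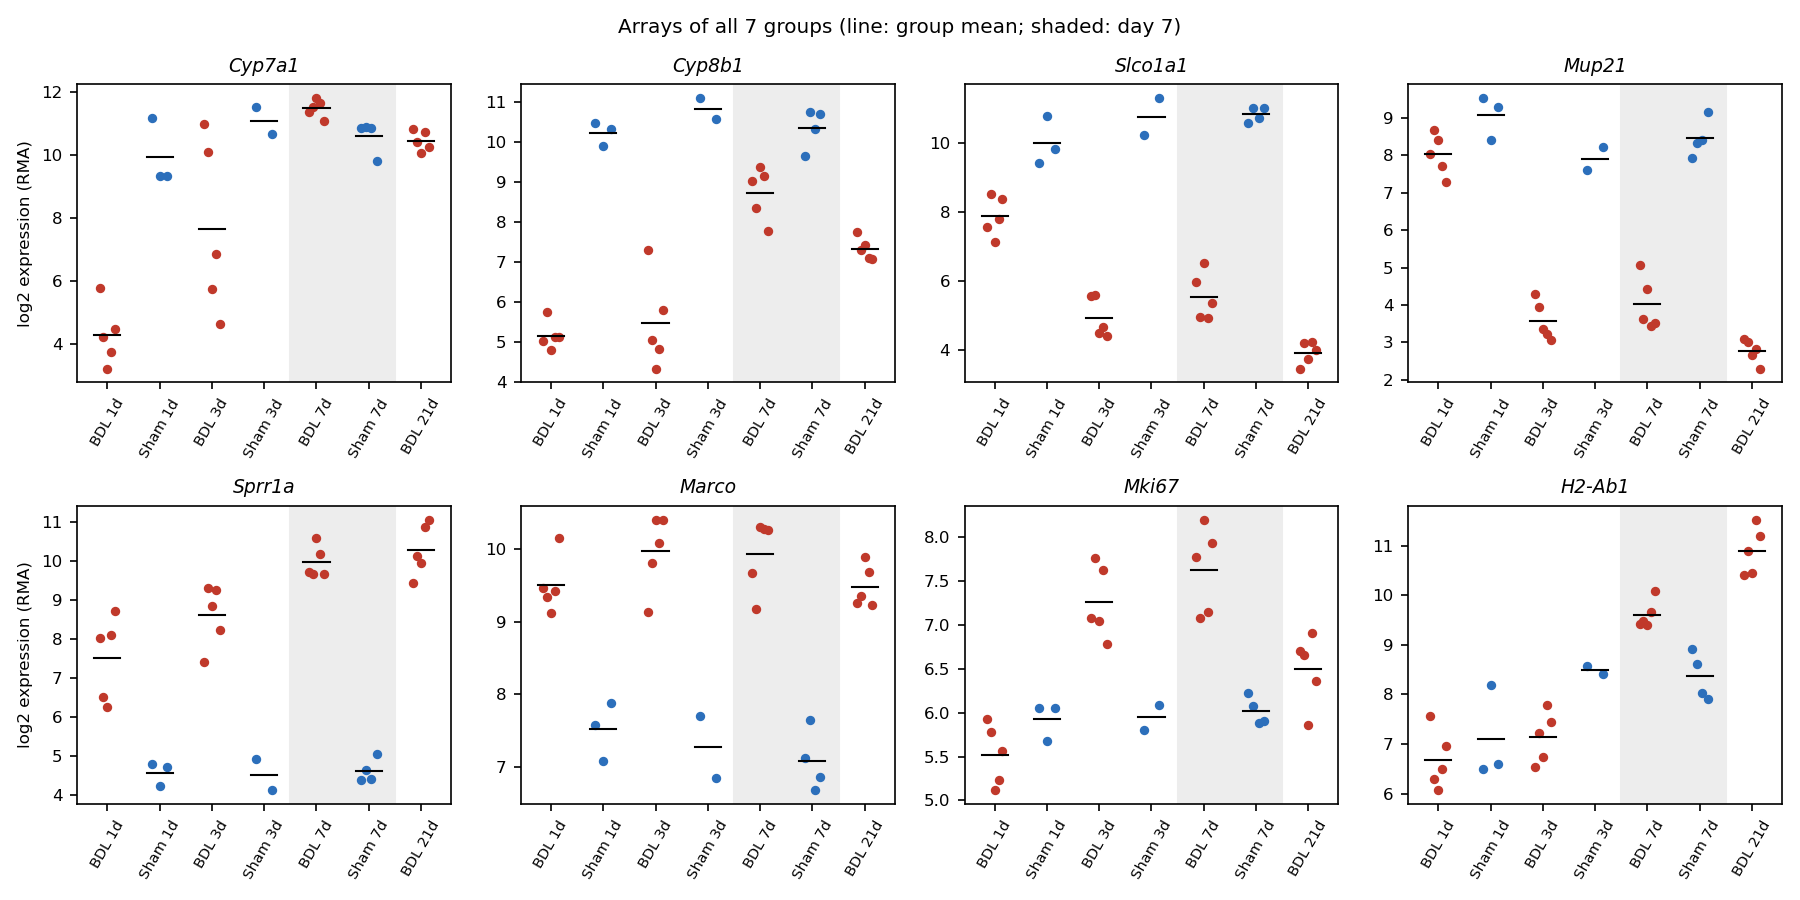
Log2 expression (y axis) of 8 genes in all arrays of the 7 groups (x axis, in order of day, BDL in red and sham in blue), with group means as lines and day 7 shaded. Cyp7a1 is low in BDL at day 1 and high at day 7, and Slco1a1 is under sham in BDL at day 1 and lower still from day 3. Mup21 is low in BDL from day 3, and H2-Ab1 is higher in BDL from day 7.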

How the data were processed

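RNA of liver was isolated with TRIzol, per the labels' protocols. The log2 values were deposited by the authors; the submitters' processing notes name oligo (1.52.0) and RMA, a method of background correction, quantile normalization and probe summary. Precision is limited by the number of arrays. Row names match the annotation of Mouse Gene 2.0 ST, although Mouse Genome 430 2.0 is the array in the labels' protocols; symbols came from that annotation and were updated through RefSeq (GRCm38.p6). No source used here gives a genome build of the authors. Of 41345 rows, 23521 had 1 gene symbol, 1814 several and 16010 none here. The row of highest mean was kept for each of 22180 genes, and 14699 with a log2 value over 5 in at least 3 arrays were tested.

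limma 3.58.1 under R 4.3.3 (lmFit, eBayes) was fitted to all 29 arrays with 1 mean for each of 7 groups, so that groups share an estimate of spread. Benjamini-Hochberg adjustment of two-sided p-values covered every gene tested, and calls are at 0.05. Groups came from treatment and time labels, and replicate numbers follow accession order and only name an array. Each title carries a number of its own, read here as that of an animal, and p-values rest on the spread between these arrays. The procedure was tested on simulated data.

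Genes are named by rule: the 12 largest rises and 12 largest falls among called genes whose arrays do not overlap, in each list the called members of largest change, up to 4, markers of cholestasis reported whatever their result, the 5 called genes of widest range over BDL, and up to 3 per direction for differences between days. Other list members are named to show members that did or did not pass. The 35 gene lists and the named markers were chosen with earlier results of these data known. Alternatives were filters, averaging rows, quantile and cyclic loess scaling, array weights, robust eBayes, other sets of arrays and leaving out each array.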

Additional observations from a re-analysis of the deposited data

Results flagged for a closer look

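In the groups of 4 sham or 5 BDL arrays at day 7, the highest or lowest array stood far from its neighbours in 19 of 264 examinations, 132 genes in either group. Chance gives about 1 in 20. In BDL the array was high for Cebpa (10.22 in replicate 2, next 9.68), Chil3 (7.94 in replicate 5, next 7.03), Cry1 (6.12 in replicate 1, next 5.77), Cyp7b1 (9.02 in replicate 5, next 8.76) and Elovl3 (9.03 in replicate 1, next 7.24). It was low in BDL for Acadvl (9.21 in replicate 4, next 9.56), Cd68 (9.40 in replicate 2, next 10.02), Srxn1 (8.58 in replicate 4, next 8.79) and Vim (9.85 in replicate 2, next 10.08). In sham replicate 1 was high for Acta2 (9.16, next 7.53), Col4a2 (7.00, next 6.54), Col6a3 (7.74, next 6.25) and Lamc1 (7.76, next 6.96) and low for Slc10a1 (11.63, next 12.15). Other sham arrays were high for Cd79a (5.87 in replicate 2, next 5.01) and Klb (9.14 in replicate 3, next 8.74). Sham replicate 4 was low for Abcc1 (5.42, next 5.76), Ctss (8.18, next 8.83) and Cyp7a1 (9.81, next 10.84).

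The effect of ligation differed between days for the genes that follow, by the test of the difference itself in limma. Day 7 minus day 1 was 6.52 for Cyp7a1, 3.46 for Car3, 3.44 for Cyp8b1, -4.08 for Serpina4-ps1, -3.40 for Mup21 and -3.17 for Slco1a1, with adjusted p up to 0.0372. Those of Cyp7a1 and Mup21 are as fitted, with a BDL mean under background at day 1 for Cyp7a1 and at day 7 for Mup21. Car3 had 11.20, 10.42, 11.53, 10.55 and 9.81 in BDL and 12.14, 12.76, 12.74 and 13.28 in sham at day 7, and its call at day 7 (-2.03, adjusted p = 0.0278 in limma) was lost without BDL replicate 2, 4 or 5 or sham replicate 2, 3 or 4 (up to 0.0848). Day 7 minus day 3 was 3.73 for Cyp8b1, 2.60 for H2-Ab1, 2.20 for H2-Aa, -1.98 for Gabbr2 and -1.08 for Cry1, with adjusted p up to 0.0459. H2-Ab1, a chain of the MHC class II molecule, had 9.42, 9.47, 9.39, 9.67 and 10.08 in BDL and 8.91, 8.61, 8.02 and 7.90 in sham at day 7, without overlap. On days 1, 3 and 7 its log2 fold change was -0.41, -1.35 and 1.25, and that of H2-Aa, its partner, was -0.51, -1.04 and 1.16. The day 7 call of Cry1, a clock repressor (-0.40), was lost without BDL replicate 2, 3 or 5 or sham replicate 1 or 4 (adjusted p up to 0.0909). That of Gabbr2, a GABA-B receptor subunit (-0.59), was lost without BDL replicate 3 (0.0848) or sham replicate 1 (0.121) and against all 9 sham arrays (0.179). The day 3 sham group holds 2 arrays.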

How the results depend on the processing

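Of 132 genes named for day 7, 106 kept their side of the threshold and their direction in all 19 other settings run, 22 lost a call in at least 1, 2 (Cyp7a1 and Glul) gained one, and 2 with differences near 0 turned in sign. The 2819 calls became 4375 against all 9 sham arrays and ranged from 2267 to 2822 when 1 array was left out. The 731 lower calls became 1258 against all 9 sham arrays, 1327 with quantile scaling, 1169 with cyclic loess and 1191 with array weights, and ranged from 540 to 723 without 1 array. The 637 differences from day 1 were 287 without the 4 day 1 arrays of low spread and 1076 with them as a term, both chosen after seeing the data. Nr0b2 (0.02) was at -0.26 against all 9 sham arrays, -0.062 with quantile scaling, -0.055 with cyclic loess and -0.022 with array weights, and at -0.38 to 0.52 when 1 array was left out. Hnf4a (-0.02) was at -0.11 to 0.056 when 1 array was left out. Outside the fit without the 4 day 1 arrays, the calls of differences that ended were those of Car3 and Cry1. That of Car3 ended without sham replicate 1 (adjusted p = 0.0658 in limma), and that of Cry1, against day 3, without the same array (0.0662). The causes were not tested. No paired analysis was possible because the number in each array title is its own and pairs no arrays. Group means under 5 were taken as not told apart from background, a level chosen as the filter and not measured. The 4 sham arrays limit the precision: the median SE was 0.14 at day 7.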

Other observations

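The 5 genes called at day 7 whose BDL arrays ran over the widest range were Gbp4, Cyp4a12a, Mir1948, Elovl3 and Ifi209. Gbp4, an interferon-induced GTPase, had 5.10, 4.42, 5.65, 4.25 and 6.85 in BDL and 4.13, 4.82, 3.63 and 4.15 in sham, and Ifi209, an interferon-induced DNA sensor relative, had 5.60, 5.26, 5.78, 4.75 and 6.74 in BDL and 4.80, 4.53, 4.69 and 4.69 in sham. BDL replicate 5 was the highest array for both, and without it neither call held (adjusted p = 0.162 in limma for Gbp4 and 0.0557 for Ifi209), with sham means under background. The call of Gbp4 was lost in 10 of 19 other settings. Cyp4a12a had 7.44, 5.29, 6.76, 6.18 and 5.95 in BDL and 8.24, 8.70, 8.43 and 9.93 in sham. BDL replicate 1 was the highest of its group for Cyp4a12a and Elovl3. The row of the microRNA gene Mir1948 had 7.86, 6.37, 8.44, 7.94 and 7.67 in BDL and 8.69, 8.99, 8.84 and 8.97 in sham, with BDL replicate 2 the lowest; its call was lost without that array (-0.89, adjusted p = 0.0724) and without sham replicate 2 or 4 (up to 0.0509). Genes with a wide range were chosen by that range, so it is a description.

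Beyond matrix genes, sham replicate 1 was high for Cyp4a14 (11.11, against 7.62, 7.38 and 7.84 in the other sham arrays and 6.19 to 9.20 in BDL), Tff3 (11.07, against 8.11, 7.51 and 7.67 in sham and 7.25 to 8.56 in BDL) and Cyp17a1, a steroid hydroxylase (9.24, against 7.56, 7.46 and 7.46 in sham and 7.81 to 8.94 in BDL). Among male-biased genes it was the lowest sham array for Hsd3b5, Slco1a1, Elovl3, Mup21, Cyp7b1 and Moxd1.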
